A study of Mus musculus with 6 samples.

Results

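Interferon response genes are the transcripts that cells switch on when interferons, the cytokines of antiviral and antibacterial defence, bind their receptors. The set described here holds 41 mouse genes, taken by symbol: the brightest probe set (on average over all arrays) that the platform annotation pairs with 1 gene only stands for each. Of the 41, 39 had such a probe set and 33 were bright enough to be tested, out of 18193 genes with a probe set of their own and 9673 tested genes. No level of Isg15 or Ifi44 is given, since no probe set in the annotation used names either alone.

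Type I and type III interferons act through receptor-bound kinases and a complex that holds Stat2 and Irf9, which binds interferon-stimulated response elements in the promoters of its targets. Interferon gamma, the type II interferon of T and natural killer cells, acts through a receptor of its own and gamma-activated sites, and drives the guanylate-binding proteins, the immunity-related GTPases, the antigen-loading machinery and the chemokine Cxcl9. In the small intestine type III interferon is known to act chiefly on epithelial cells, and signals from the microbiota hold a part of the programme active without infection.

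The measured tissue was the jejunum of male C57BL/6 mice, aged 7 to 10 weeks, caged singly and given a high-fat diet (42% of energy from milk fat, 0.2% from cholesterol) for 3 weeks before the tissue was frozen, although the housing notes give a span of 3 to 8 weeks. The group of 3 double knockout mice, numbered 1, 2 and 3, lacked TIS7 (Ifrd1) and SKMc15 (Ifrd2), a pair of related genes of transcriptional regulators. The group of 3 wild type mice, numbered 1, 3 and 4, carried neither deletion and received the same diet. The sources used here do not state which exons were removed, in which cells, or whether the groups were littermates. Each mouse gave 1 Affymetrix whole-genome array, and every level below is a log2 expression value as the authors deposited it.

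Ifrd2 had levels of 2.64, 2.74 and 2.59 in double knockout mice 1, 2 and 3, against 8.20, 8.32 and 8.61 in wild type mice 1, 3 and 4. Ifrd1 had 6.27, 4.80 and 4.85 in the double knockout mice and 10.00, 9.84 and 9.91 in the wild type mice, so the arrays bear out the genotype labels, and double knockout mouse 1 had the highest Ifrd1 signal of its group. Enterocyte markers were present on every array, with mean levels of 13.23 to 13.32 in double knockout and 13.34 to 13.37 in wild type jejunum over 12 tested genes. Their difference, double knockout minus wild type, was negative for 11 and positive for 1, with a median of -0.10, while 58.1% of all tested genes were positive. For 8 of the 12 all double knockout values lay below all wild type values, beside 14.2% of all tested genes. In the limma test described below 0 of the 12 passed. Array medians lay between 2.87 and 2.90. The 3′ minus 5′ difference of the actin and Gapdh control transcripts, a measure of RNA quality, was 0.60, 0.41 and 0.61 in double knockout mice and 0.35, 0.49 and 0.36 in wild type mice, which overlap.

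No interferon response gene passed the test between genotypes. The difference, always double knockout minus wild type, was positive for 28 of the 33 tested genes (84.8%, beside 58.1% of all tested genes) and negative for 5. Usp18 was the furthest apart at 2.12 on the log2 scale, and the median difference of the set was 0.33, beside 0.05 over all tested genes. By limma, with Benjamini-Hochberg adjustment over 18013 probe sets and a threshold of 0.05, 0 of 33 were higher and 0 lower, while 4.78% of all tested genes passed, 3.17% higher and 1.60% lower. Of the 45 tested probe sets of these genes 0 passed, beside 4.47% of all probe sets, 2.54% higher and 1.93% lower. At an unadjusted p under 0.05, 4 of 33 (12.1%) were higher and 0 lower, beside 17.6% and 10.4% of all tested genes. The groups did not overlap for 8 genes (24.2%), all with double knockout above wild type, beside 22.5% of all tested genes in that direction. For 0 genes did all double knockout values lie below all wild type values, beside 14.2% of all tested genes. The share of non-overlapping genes thus lay near that of all genes for double knockout above wild type, and in either direction together it was 24.2%, beside 36.7% of all tested genes.

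**Figure D1:**
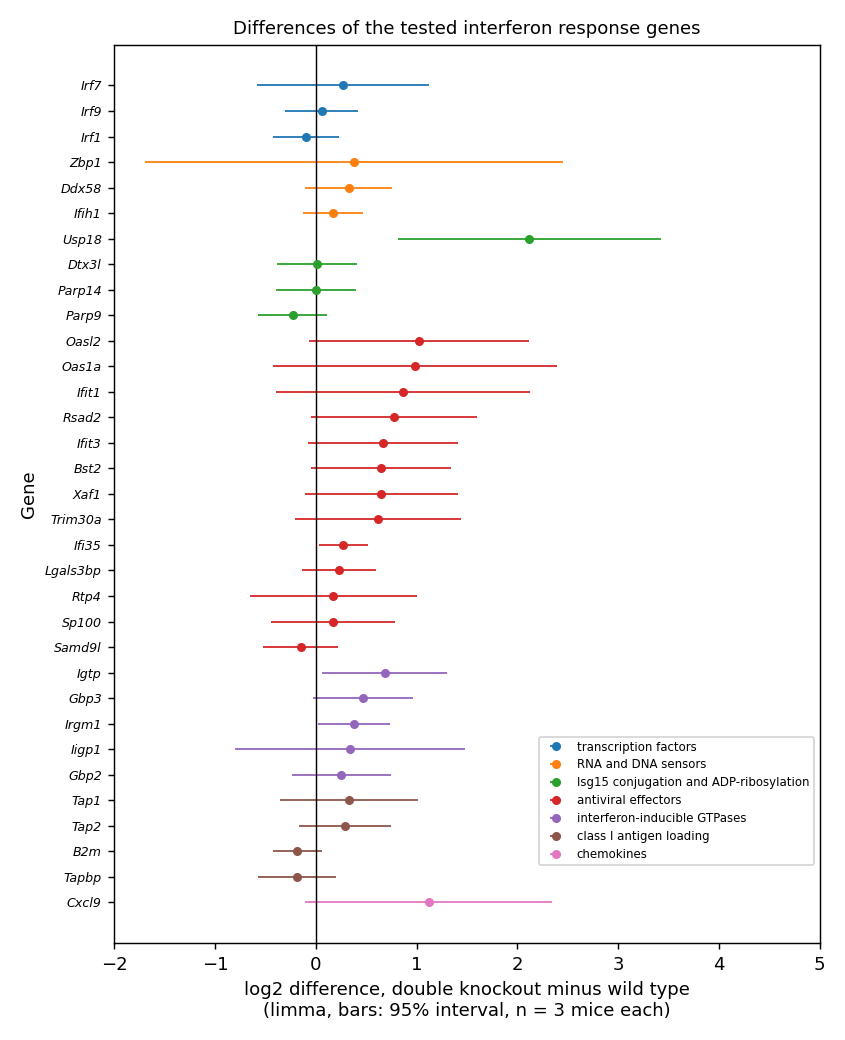
Log2 difference of each of the 33 tested interferon response genes (x axis, double knockout minus wild type), with 95% intervals from limma over 3 mice a group and colours for the role of the gene. Most points lie right of 0 and the interval of Usp18 reaches from 0.81 to 3.42, but no gene passed after adjustment over all probe sets.

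The double knockout mice differed among themselves by more than the wild type mice did. Double knockout mouse 1 had the highest level of all 6 mice for 23 of 33 genes (69.7%), beside 19.7% of all tested genes, and the lowest for 0. Double knockout mouse 3 was the highest for 0 genes, double knockout mouse 2 for 5, and among wild type mice only mouse 4 was ever the highest, for 5. Wild type mouse 1 had the lowest level for 14 genes (42.4%), beside 20.9% of all tested genes. Relative to the wild type mean, the median over the set was 0.67 in double knockout mouse 1, 0.21 in mouse 2 and 0.10 in mouse 3, and -0.13, -0.07 and 0.17 in wild type mice 1, 3 and 4. Over all tested genes the same medians lay between 0.04 and 0.06 in double knockout mice and within 0.01 of 0 in wild type mice.

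Without double knockout mouse 1 the median difference of the set was 0.16, beside 0.05 over all tested genes, and 21 of 33 differences were positive (63.6%), beside 57.5% of all tested genes. The SD within the double knockout group had a median of 0.49 over the set and that within the wild type group 0.23, beside 0.13 and 0.12 over all tested genes. It was larger among the double knockout mice for 26 of 33 genes (78.8%), beside 56.1% of all tested genes.

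**Figure D2:**
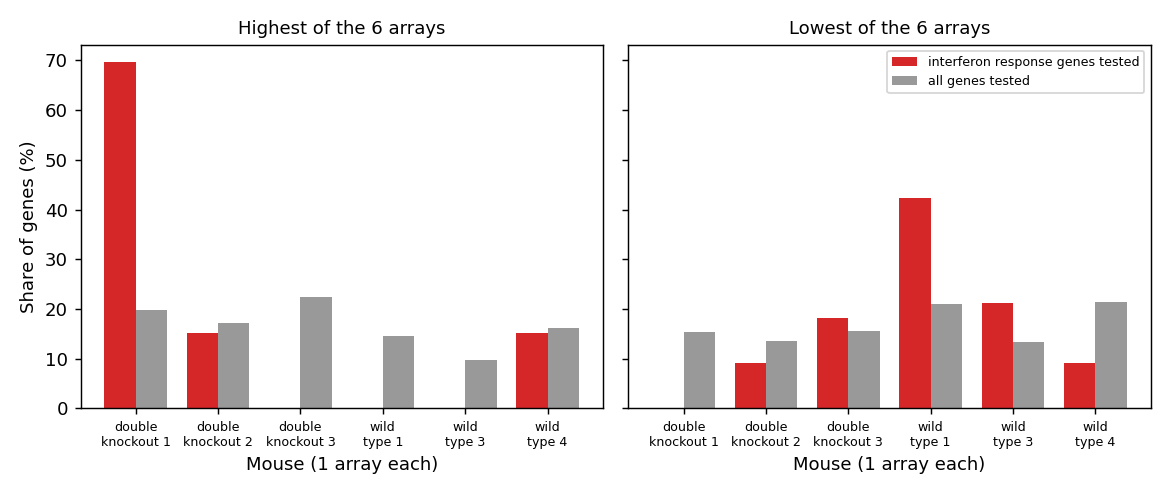
Share of genes (y axis, percent) that had their highest (left) or lowest (right) level on each of the 6 arrays (x axis), for the 33 tested interferon response genes in red and all 9673 tested genes in grey. The red bar of double knockout mouse 1 reaches 69.7% on the left and wild type mouse 1 reaches 42.4% on the right.

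**Figure D3:**
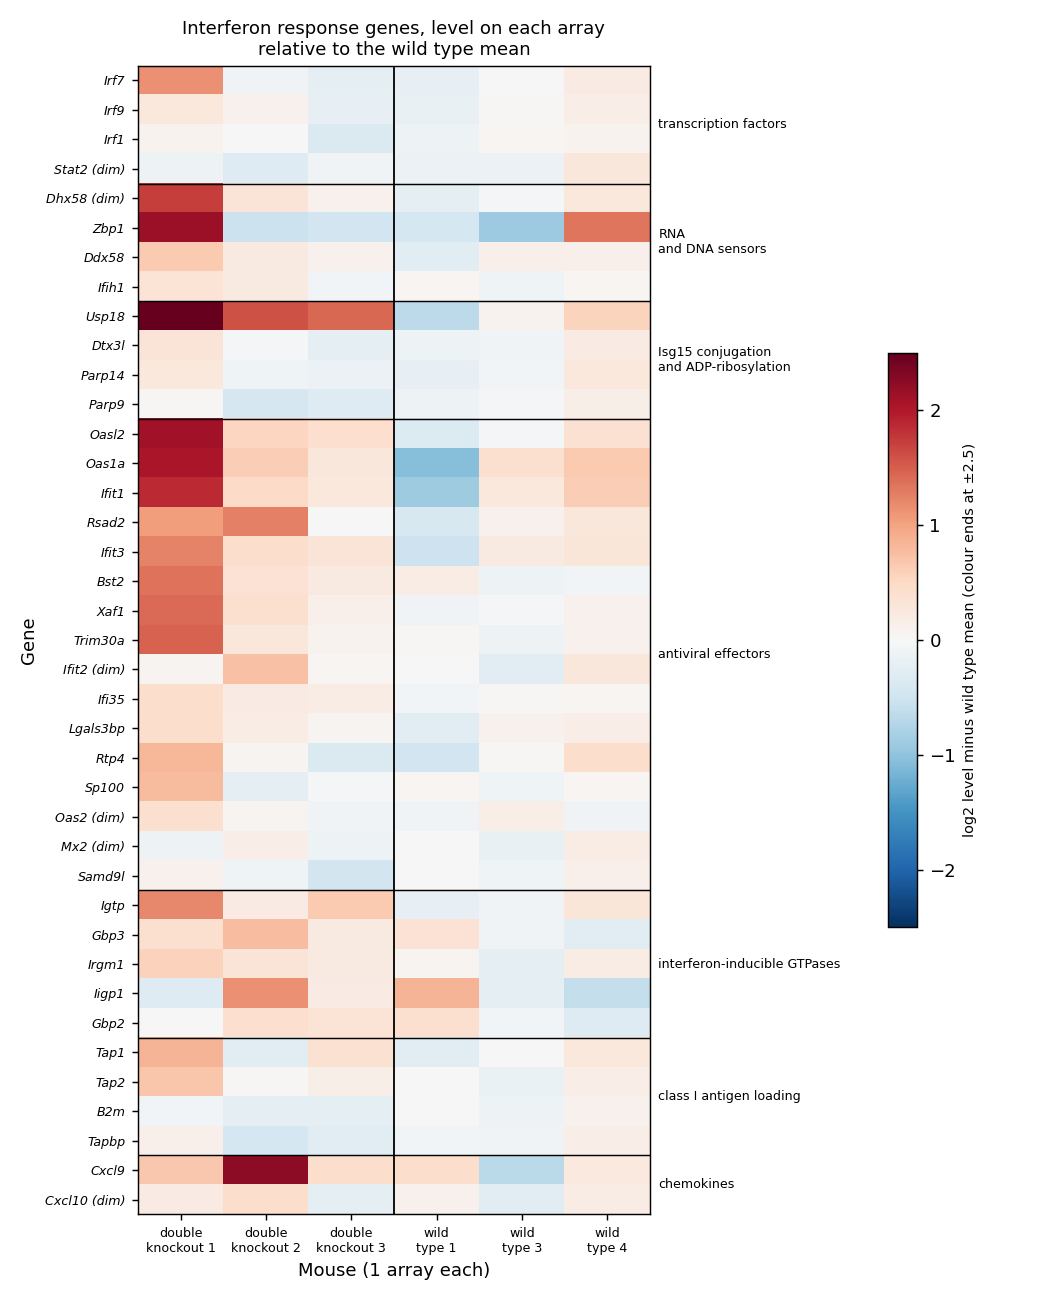
Level of the 39 measured interferon response genes (rows, by role) on each array (columns), as the log2 level minus the wild type mean, red above and blue below it; genes marked dim were under the brightness filter. The column of double knockout mouse 1 is the reddest, with Usp18, Zbp1, Oasl2 and Oas1a at its darkest, while Cxcl9 and Iigp1 are reddest in double knockout mouse 2.

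Among the transcription factors, Irf7, which amplifies type I interferon production, had levels of 8.37, 7.15 and 6.98 in double knockout mice 1, 2 and 3, against 7.03, 7.23 and 7.42 in wild type mice 1, 3 and 4. Only double knockout mouse 1 lay above the wild type range, and mouse 3 lay below it. The difference was 0.27 ± 0.36 (SE, limma adjusted p = 0.653) and -0.16 without double knockout mouse 1. Irf9, the DNA-binding subunit of the type I and III complex, averaged 8.15 ± 0.24 in double knockout and 8.09 ± 0.18 in wild type mice (SD, n = 3 each). Irf1, an early target of interferon gamma, averaged 10.02 ± 0.24 in double knockout and 10.12 ± 0.11 in wild type mice. Stat2 was under 4 on every array of either group.

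No sensor of viral nucleic acid passed, and the groups overlapped for all 3 that were tested. Ddx58 (RIG-I), a sensor of viral RNA ends, had 8.31, 7.88 and 7.76 in double knockout mice, against 7.40, 7.80 and 7.79 in wild type mice, a difference of 0.33 ± 0.18 (SE). Its other tested probe set stood at -0.30 ± 0.20, so the probe sets differed in sign and neither passed (limma adjusted p 0.293 and 0.382). Ifih1 (MDA5), the sensor of long double-stranded RNA, averaged 9.85 ± 0.21 in double knockout and 9.68 ± 0.09 in wild type mice (SD). Dhx58 (LGP2), a regulator of both, was under 4 except in double knockout mouse 1, at 4.95, and was not tested.

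Zbp1, a sensor of Z-form nucleic acid that can start cell death, split the mice within each genotype. It had 7.99, 5.31 and 5.37 in double knockout mice 1, 2 and 3, and 5.41, 4.94 and 7.19 in wild type mice 1, 3 and 4. The high mice were double knockout mouse 1 and wild type mouse 4, and the groups overlapped (difference 0.38 ± 0.87, SE). Its other probe set had 6.77 in double knockout mouse 1, against 4.39 in wild type mouse 4 and at most 3.95 elsewhere.

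Usp18, the protease that removes Isg15 from proteins and damps signalling at the type I interferon receptor, stood furthest from wild type. It had 7.84, 6.11 and 5.95 in double knockout mice, against 3.87, 4.60 and 5.08 in wild type mice. The lowest double knockout mouse lay above the highest wild type mouse by more than either lay from its nearest neighbour in its own group. The difference of 2.12 ± 0.55 (SE, 95% interval 0.81 to 3.42), or 4.33-fold, did not pass (limma adjusted p = 0.0747, unadjusted p = 0.00673). Without double knockout mouse 1 it was 1.51 ± 0.35 (limma adjusted p = 0.0877), and over 16 alternatives it ranged from 1.51 to 2.66 with limma adjusted p-values of 0.0651 to 0.354. A single probe set measured it, and wild type mouse 1 lay under the level of 4 used as the brightness minimum.

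The other members of this role lay closer to wild type. Dtx3l, a ubiquitin ligase, averaged 8.95 ± 0.28 in double knockout and 8.94 ± 0.18 in wild type mice, and its partner Parp9, an ADP-ribosyltransferase family member, averaged 9.38 ± 0.24 in double knockout and 9.62 ± 0.14 in wild type mice (SD, n = 3 each). Parp14, another ADP-ribosyltransferase, averaged 8.52 ± 0.23 in double knockout and 8.52 ± 0.25 in wild type mice. The 95% intervals of these 3 differences ran from -0.57 to 0.41 at their widest ends.

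The antiviral effectors, which block viral entry, translation, replication or release, were the role with the most genes. Of 17 genes 16 were measured and 13 tested, 12 with positive and 1 with a negative difference, with a median of 0.65. The groups of 5 of the 13 did not overlap, all with double knockout above, beside 22.5% of all tested genes in that direction. Double knockout mouse 1 was the highest of all mice for 11 of the 13. No member passed by limma.

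Oasl2, of the oligoadenylate synthetase family, had 10.25, 8.68 and 8.57 in double knockout mice, against 7.79, 8.10 and 8.53 in wild type mice. Double knockout mouse 3 exceeded wild type mouse 4 only narrowly, and mouse 1 stood far above all others. The difference was 1.02 ± 0.46 (SE, limma adjusted p = 0.206), and 0.48 ± 0.22 without double knockout mouse 1. Oas1a, which makes the second messenger that activates RNase L, had 10.19, 8.76 and 8.44 in double knockout mice, against 7.09, 8.55 and 8.80 in wild type mice. Here the groups overlapped, and the difference of 0.98 ± 0.59 drew on a high double knockout mouse 1 and a low wild type mouse 1 alike.

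The Ifit proteins bind foreign RNA caps and ends, and 2 of the 3 were tested. Ifit1 had 9.40, 8.01 and 7.80 in double knockout mice, against 6.65, 7.80 and 8.15 in wild type mice. Ifit3 had 7.77, 6.97 and 6.85 in double knockout mice, against 6.01, 6.75 and 6.84 in wild type mice. Double knockout mouse 1 was highest and wild type mouse 1 lowest for both, with the groups overlapping for Ifit1 and apart by little for Ifit3. Their differences were 0.87 ± 0.53 and 0.67 ± 0.31 (SE, limma adjusted p 0.332 and 0.223), and 0.37 and 0.38 without double knockout mouse 1. Ifit2 was too dim to test, at 3.83, 4.49 and 3.81 in double knockout mice and 3.75, 3.48 and 4.03 in wild type mice.

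Bst2 (tetherin), which holds budding virus at the cell surface, had 6.46, 5.48 and 5.34 in double knockout mice, against 5.29, 4.99 and 5.05 in wild type mice. Xaf1, a pro-apoptotic partner of the inhibitor of apoptosis XIAP, had 8.61, 7.59 and 7.31 in double knockout mice, against 7.11, 7.16 and 7.30 in wild type mice. The groups did not overlap for either gene, but double knockout mouse 3 lay only just above wild type mouse 4 for Xaf1. Their differences were both 0.65 (SE 0.29 and 0.32, limma adjusted p 0.207 and 0.241). Trim30a, a protein of the tripartite motif family, averaged 7.97 ± 0.75 in double knockout and 7.35 ± 0.12 in wild type mice (SD), and its levels in double knockout mice 1, 2 and 3 were 8.82, 7.64 and 7.45. Without mouse 1 the differences of Bst2, Xaf1 and Trim30a were 0.30, 0.26 and 0.19.

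Ifi35, a partner of Nmi in innate signalling, had the smallest range over the 6 mice among the tested effectors, at 0.51. It had 12.28, 12.04 and 12.02 in double knockout mice, against 11.76, 11.87 and 11.89 in wild type mice. The groups did not overlap, and the difference was 0.27 ± 0.10 (SE, limma adjusted p = 0.152). Its other probe sets stood at 0.24 and 0.25, and neither passed.

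Rsad2 (viperin), which makes a chain-terminating nucleotide, had 5.61, 5.84 and 4.58 in double knockout mice, against 4.17, 4.68 and 4.84 in wild type mice. Double knockout mice 1 and 2 lay above the wild type range and mouse 3 within it (difference 0.78 ± 0.35, SE, limma adjusted p = 0.204). The remaining tested effectors, Lgals3bp, Rtp4, Sp100 and Samd9l, had differences of 0.23, 0.17, 0.17 and -0.15. The 2 tested probe sets of Sp100, a nuclear body protein, differed in sign (0.17 and -0.39). Oas2 and Mx2 were under 4 on every array.

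**Figure D4:**
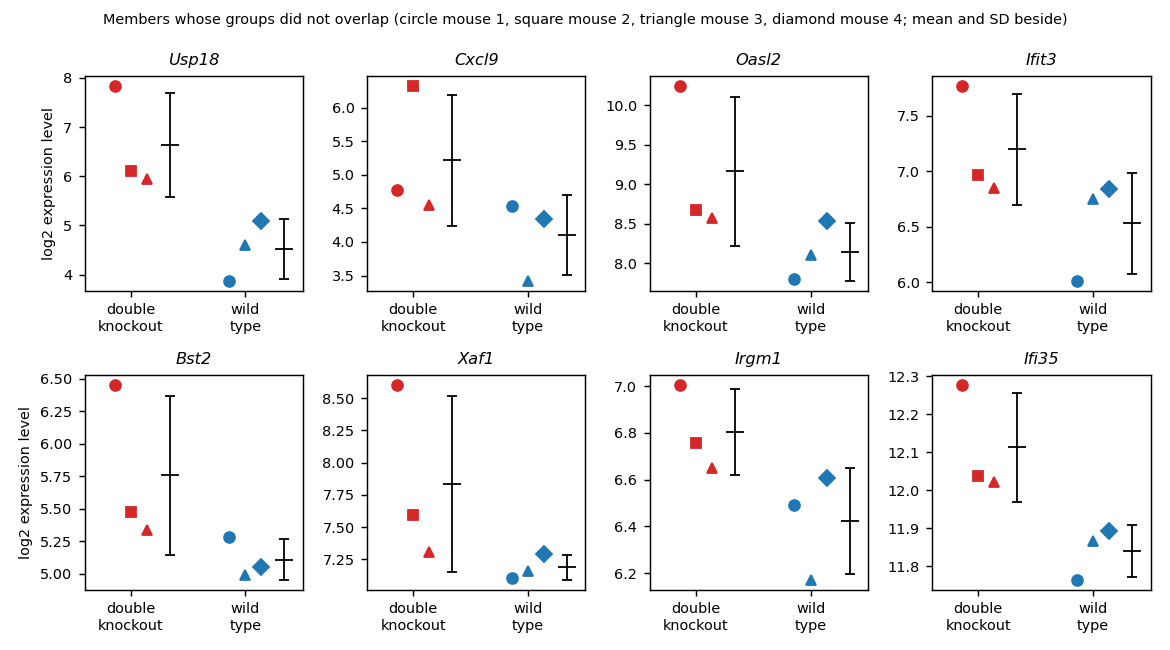
Log2 level (y axis) of the 8 interferon response genes whose groups did not overlap, for each double knockout mouse in red and each wild type mouse in blue, with the group mean and SD (n = 3) beside the points. Double knockout mouse 1 (red circle) is the highest mouse in every panel except that of Cxcl9, where mouse 2 (red square) is.

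The interferon-inducible GTPases attack the membranes around intracellular pathogens. All 5 tested genes had positive differences with a median of 0.38, and 0 passed by limma, with 2 of the 5 higher and 0 lower at an unadjusted p under 0.05, beside 17.6% and 10.4% of all tested genes. Igtp had 9.13, 8.14 and 8.58 in double knockout mice, against 7.73, 7.85 and 8.23 in wild type mice. Irgm1, a regulator of the family, had 7.01, 6.76 and 6.65 in double knockout mice, against 6.49, 6.17 and 6.61 in wild type mice. The groups overlapped for Igtp and were narrowly apart for Irgm1 (differences 0.68 ± 0.26 and 0.38 ± 0.15, SE, limma adjusted p 0.157 and 0.164).

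Other members of this family put the mice in a different order. Iigp1 had 6.65, 8.11 and 7.17 in double knockout mice, against 7.81, 6.72 and 6.38 in wild type mice. Gbp2 had 7.13, 7.54 and 7.47 in double knockout mice, against 7.53, 7.05 and 6.80 in wild type mice. Gbp3 had 5.82, 6.20 and 5.64 in double knockout mice, against 5.78, 5.34 and 5.14 in wild type mice. Double knockout mouse 2 was the highest mouse and wild type mouse 1 the highest of its own group for all 3 genes, and the groups overlapped (differences 0.34, 0.25 and 0.47). The other tested probe set of Gbp2 stood at -0.02.

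The chemokine Cxcl9, which draws T cells and is induced by interferon gamma, followed double knockout mouse 2 as well. It had 4.77, 6.33 and 4.55 in double knockout mice, against 4.53, 3.42 and 4.34 in wild type mice, so the groups were narrowly apart and 1 mouse stood out. The difference was 1.12 ± 0.51 (SE, limma adjusted p = 0.217), and it passed in 1 of 15 alternatives, the fit with the 3′ to 5′ difference as a covariate (2.27 ± 0.12, limma adjusted p = 0.00834). Its other probe set was under 4 on every array. Cxcl10 was too dim to test, at 3.89, 4.13 and 3.44 in double knockout mice and 3.79, 3.41 and 3.87 in wild type mice.

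Class I antigen loading was split by gene. Tap1, a subunit of the peptide transporter, had 8.75, 7.63 and 8.27 in double knockout mice, against 7.63, 7.88 and 8.16 in wild type mice, and Tap2, its other subunit, averaged 7.74 ± 0.36 in double knockout and 7.45 ± 0.16 in wild type mice (SD). Tapbp (tapasin), which bridges the transporter to class I molecules, averaged 10.90 ± 0.29 in double knockout and 11.09 ± 0.15 in wild type mice. Its other probe set stood at -0.44 ± 0.15 (SE, limma adjusted p = 0.127). B2m, the light chain of class I molecules, had 13.36, 13.20 and 13.18 in double knockout mice, against 13.45, 13.30 and 13.55 in wild type mice. Differences were positive for Tap1 and Tap2 (0.33 and 0.29) and negative for Tapbp and B2m (-0.19 each), and the groups overlapped for all 4 genes. Over the whole set, 5 of 11 genes with more than 1 tested probe set had probe sets that differed in sign.

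The promoters are shown for the response element named above, a known feature of interferon targets. The genes were chosen as such targets, so a high share among them is no independent result. RefSeq windows of GRCm38.p6, from 250 bases before to 50 after a gene's start, were at hand for 31 of the 41 genes. The core of the interferon-stimulated response element, searched as GAAA, any 2 bases and GAAA on both strands with overlaps allowed, was in the window of 16 of the 31 (51.6%), beside 3.99% of 27025 genes. The core of the gamma-activated site, TTCNNNGAA, reads the same on both strands and was in 6 of the 31 (19.4%), beside 9.55% of all genes. All 4 GTPases with a window, Gbp2, Gbp3, Igtp and Irgm1, held the response element, and so did Isg15, Oas1a, Ifit1, Ifit3 and Bst2. Both kinds of gene, those highest in double knockout mouse 1 and those highest in mouse 2, were thus among the genes with a match. The windows were drawn for the 6 tested genes of smallest p among those with a window, which left out Usp18. Of these, Igtp, Irgm1, Gbp3 and Rsad2 held the response element core and are printed, and Ifi35 and Oasl2 did not. Gbp3 had 2 windows, and the one with the most matches was taken. Each line gives the 150 bases before the start, 5′ to 3′ on the gene's strand, with matches to the response element core in capitals and the gamma-activated site left unmarked.
Igtp: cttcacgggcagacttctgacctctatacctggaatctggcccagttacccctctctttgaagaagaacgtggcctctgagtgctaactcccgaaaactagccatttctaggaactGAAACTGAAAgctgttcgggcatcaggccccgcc
Irgm1: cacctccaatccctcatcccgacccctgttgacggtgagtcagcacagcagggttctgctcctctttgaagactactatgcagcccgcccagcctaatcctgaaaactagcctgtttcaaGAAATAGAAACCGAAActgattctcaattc
Gbp3: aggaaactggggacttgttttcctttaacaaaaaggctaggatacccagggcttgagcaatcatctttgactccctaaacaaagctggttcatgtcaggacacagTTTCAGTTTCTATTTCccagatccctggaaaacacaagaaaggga
Rsad2: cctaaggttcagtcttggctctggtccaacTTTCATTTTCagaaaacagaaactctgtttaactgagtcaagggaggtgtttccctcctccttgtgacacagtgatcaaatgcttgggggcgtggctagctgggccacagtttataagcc
These stretches lie at chr11:58199406-58199555 (plus strand, Igtp), chr11:48871421-48871570 (minus, Irgm1), chr3:142559894-142560043 (plus, Gbp3) and chr12:26456453-26456602 (minus, Rsad2). In Irgm1 and Gbp3 a pair of these matches overlaps into 1 run, and in Gbp3 and Rsad2 the match lies on the opposite strand and reads as TTTC. A match describes the letters and is no evidence of binding in these mice. Of the 41 genes, Rsad2 alone lies on the chromosome of a targeted gene (Ifrd1).

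Upstream of the set, the interferon ligands that were measured lay at or near the bottom of the scale. The list of ligands and inducers held 11 genes, and Ifnk, Ifne and the type III ligands Ifnl2 and Ifnl3 had no measured level. Of 7 measured genes in the list of ligands and inducers, 6 were under 4 on every array, among them Ifnb1 (1.74, 1.44 and 1.59 in double knockout mice, against 1.63, 1.55 and 1.81 in wild type mice) and Ifng (1.29, 1.72 and 1.40 in double knockout mice, against 1.61, 1.57 and 1.46 in wild type mice). Il18, an epithelial inducer of interferon gamma, was the exception at 10.48 ± 0.34 in double knockout and 10.37 ± 0.59 in wild type mice (SD, n = 3 each). Of 18 tested genes of the receptors and their signalling, 0 passed in either direction by limma, with 1 higher and 2 lower at an unadjusted p under 0.05, beside 17.6% and 10.4% of all tested genes. The difference was negative for 14 of the 18 and positive for 4, while 58.1% of all tested genes were positive. All double knockout values lay below all wild type values for 6 and above them for 2, beside 14.2% and 22.5% of all tested genes. Ifngr2, a chain of the interferon gamma receptor, had 10.12, 10.31 and 10.21 in double knockout mice, against 10.75, 10.58 and 10.53 in wild type mice. All double knockout values lay below all wild type values (difference -0.40 ± 0.10, SE, limma adjusted p = 0.0686). Irf8, a factor of myeloid and B cells, stood at 0.53 ± 0.13 and Irf2, which competes with Irf1, at -0.32 ± 0.11 (limma adjusted p 0.0632 and 0.118). The type I receptor chains Ifnar1 and Ifnar2 stood at 0.16 and -0.07, and the type III chain Ifnlr1 at -0.20.

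Of 9 tested adaptors and sensors that lead to interferon production, 0 passed in either direction by limma. At an unadjusted p under 0.05, 1 was higher and 1 lower, beside 17.6% and 10.4% of all tested genes. The kinase Ikbke stood at -0.43 ± 0.11 and Tbk1 at -0.18 ± 0.09, and Cgas, the sensor of cytosolic DNA, at 0.72 ± 0.21 (SE, limma adjusted p 0.0704, 0.225 and 0.0959). Among 37 tested further interferon-induced genes outside the set, 1 was higher (beside 3.17% of all tested genes) and 0 lower by limma. Their median difference was 0.18, beside 0.05 over all tested genes. The difference was positive for 24 of the 37 and negative for 13, while 58.1% of all tested genes were positive. All double knockout values lay above all wild type values for 6 and below them for 2, beside 22.5% and 14.2% of all tested genes. At an unadjusted p under 0.05, 7 of the 37 were higher and 0 lower, beside 17.6% and 10.4% of all tested genes. The gene that rose was Ifitm3, which keeps viruses from fusing with endosomes. It had 10.04, 10.30 and 10.14 in double knockout mice, against 9.71, 9.64 and 9.43 in wild type mice. The groups did not overlap, and the difference was 0.57 ± 0.11 (SE, limma adjusted p = 0.0471). The call ended without any 1 of the 6 mice, with the limma adjusted p between 0.0751 and 0.141, and the difference between 0.49 and 0.63.

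The jejunum holds immune cells that carry these genes, and their markers differed between mice. In bulk tissue, fewer cells of a type and less RNA per cell cannot be told apart. Some B cell markers differed widely within each genotype. Ms4a1 (CD20) had 8.27, 2.58 and 1.90 in double knockout mice 1, 2 and 3, and 7.44, 1.57 and 7.56 in wild type mice 1, 3 and 4. Cd79b, a chain of the B cell receptor, had 7.45, 4.39 and 4.11 in double knockout mice, against 7.30, 3.25 and 6.85 in wild type mice. Both were high in double knockout mouse 1 and in wild type mice 1 and 4, and low in the rest. Of these 3 mice, double knockout mouse 1 had the highest level of the 6 mice for 23 interferon response genes, wild type mouse 4 for 5 and wild type mouse 1 for 0. The part of B cells in these levels was not tested. Pou2af1, of the same list, was highest in mouse 1 of each group and averaged 6.90 ± 1.03 in double knockout and 6.32 ± 0.99 in wild type mice (SD, n = 3 each). Tnfrsf17 was under 4 on every array. The other genes of plasma cells in the list, Mzb1, Jchain and Xbp1, were more even. Mzb1, a chaperone of antibody secretion, had 7.46, 7.44 and 7.53 in double knockout mice, against 7.14, 6.42 and 6.93 in wild type mice, groups that did not overlap (difference 0.65 ± 0.18, SE, limma adjusted p = 0.0885). Jchain and Xbp1 stood at 0.18 each. Over the 6 tested genes of the B and plasma cell list the summed log2 level was 44.7 to 56.3 in double knockout and 41.3 to 54.0 in wild type mice.

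Macrophage and dendritic cell markers (9 of 16 tested) had mean levels of 6.57, 7.50 and 7.01 in double knockout mice 1, 2 and 3, against 6.83, 6.62 and 6.22 in wild type mice 1, 3 and 4. Double knockout mouse 2 was the highest of all and wild type mouse 1 the highest of its group, as for Iigp1, Gbp2, Gbp3 and Cxcl9, while the order of the other mice differed between these genes. The part of these cells in their levels was not tested. The difference was positive for 8 of the 9 tested markers, beside 58.1% of all tested genes, and negative for Lyz2. The complement gene C1qa had 7.34, 8.50 and 7.77 in double knockout mice, against 7.41, 7.17 and 6.59 in wild type mice. Other markers put the mice in a different order. Cd163 had 4.58, 4.41 and 5.38 in double knockout mice, against 4.19, 4.58 and 3.55 in wild type mice. Lyz2 had 11.08, 11.43 and 10.85 in double knockout mice, against 11.58, 11.27 and 10.85 in wild type mice. Cd68, Flt3, Xcr1, Siglech and Fcgr1 were under 4 on every array. T lymphocyte markers (7 of 13 tested) had mean levels of 5.48 to 5.93 in double knockout and 5.32 to 5.84 in wild type mice. The difference was positive for 5 of the 7 and negative for 2, beside 58.1% of all tested genes positive, and 0 passed by limma. All double knockout values lay above all wild type values for 1, Itgae, beside 22.5% of all tested genes. Itgae, Gzmb and Cd3d stood at 0.399, 0.615 and 0.540 (limma adjusted p 0.0986, 0.254 and 0.373). Cd3e, Cd247, Cd8b1 and Cd4 were under 4 on every array.

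MHC class II genes, which interferon gamma induces through Ciita, had positive differences for all 5 tested genes, with a median of 0.82 and 0 calls by limma, 3 being higher and 0 lower at an unadjusted p under 0.05, beside 17.6% and 10.4% of all tested genes. H2-Ab1 had 10.05, 9.76 and 9.80 in double knockout mice, against 9.52, 8.42 and 8.81 in wild type mice, and H2-Eb1 and H2-Aa also had groups that did not overlap, beside 22.5% of all tested genes with double knockout above. Fibroblast and endothelial markers had positive differences for all 9 tested genes with a median of 0.47, and 0 calls by limma. At an unadjusted p under 0.05, 2 of the 9 were higher and 0 lower, beside 17.6% and 10.4% of all tested genes. The groups did not overlap for 1 of the 9, with double knockout above, beside 22.5% of all tested genes. Their mean levels were 7.12, 7.65 and 7.43 in double knockout mice 1, 2 and 3, against 7.17, 7.19 and 6.55 in wild type mice 1, 3 and 4. The 3 measured neutrophil markers were under 4 on every array. The part of lymphoid and stromal cells in the levels of the interferon response genes was not tested.

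After removal of the group means, 12 of the 33 genes had a correlation above 0.9 with the mean profile of the set over the 6 arrays, to which each contributes, beside 248 of 9640 other tested genes (2.57%). Dtx3l, Oasl2, Irf7, Usp18 and Xaf1 were closest to it, and Gbp2, Iigp1, Gbp3 and Cxcl9 had negative correlations. With group means removed, 6 arrays leave few independent values, so such correlations only describe these mice. The 10 other genes closest to the profile were Herc4, Cox11, Slc18b1, Noc4l, Irak2, Tspan31, Ifit1bl1, Brd7, Snx13 and Ska1, and none of them is in the lists of further pathway genes. Ifit1bl1, a relative of Ifit1 by name, had 10.93, 10.04 and 9.52 in double knockout mice, against 10.26, 10.20 and 10.78 in wild type mice.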

How the data were processed

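Jejunal RNA of 6 mice was measured on 1 array each. The deposited values are log2 expression levels, and the submitters' processing notes name GCRMA 2.18.0 as the tool behind them; no source used here states its settings, and the log2 scale was read from the values. GCRMA models background from the probes' base content. Differences that rest on levels near the minimum of 4 call for caution. Of 45101 probe sets, 34958 name 1 gene. Control probe sets (64) were left out, and the 18013 with values above 4 on at least 3 of 6 arrays were tested with limma 3.58.1 in R 4.3.3 (no trend, no covariate), two-sided, double knockout minus wild type, with Benjamini-Hochberg adjustment. The number of arrays limits the precision. The fit was tested on simulated data.

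The members, the role groups and the other lists were chosen with earlier results of these data known. All members are named, and of most other lists the passing genes or up to 3 of smallest p. By that rule C1qc and genes of the enterocyte and the fibroblast and endothelial lists were also due, and they are not given singly. Ms4a1, Cd79b, Pou2af1, Lyz2, Ifnb1, Ifng, Ifnar1, Ifnar2, Ifnlr1 and the dim markers were added after their values were seen. Gene names were updated through the GRCm38.p6 table. Alternatives were the filter, normalization, floor, variance prior, array weights, mouse number as a block, averaging of probe sets, an RNA quality covariate and leaving out each mouse. Figures were drawn with matplotlib 3.10.9.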

Additional observations from a re-analysis of the deposited data

How the results depend on the processing

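The members' differences were recomputed under 16 alternatives, which gave 526 values. Of these, 523 moved by less than the spread between mice, 2 by more, and 1 newly passed (Cxcl9). Where 1 mouse was left out, a smaller move was fixed in advance, because the spread includes that mouse. Without double knockout mouse 1, Trim30a went from 0.618 to 0.191 and Zbp1 from 0.379 to -0.504, and both counted as smaller moves. The count of 523 thus does not show that the differences were stable when 1 mouse was left out. The sign of 30 values, over 12 genes and none of them called, changed. The set's median difference lay between 0.16 (without double knockout mouse 1) and 0.46 (mouse number as a block). The number of members called higher was 1 with the 3′ to 5′ covariate and 0 otherwise, and 0 were called lower. Genes with all double knockout mice above all wild type mice numbered 4 after quantile normalization and 8 to 14 when 1 mouse was left out, and those with all below 0 to 3, where fewer mice make separation easier. Over all probe sets, 265 were higher and 207 lower without the filter, 968 and 762 with the trend and robust prior, and 5 and 12 with the covariate; leaving out 1 mouse gave 11 to 196 higher and 21 to 239 lower. Further interferon-induced genes called higher numbered 0 without the filter, 0 with the covariate, 3 with the trend and robust prior and 0 to 0 when 1 mouse was left out. The fit with the mouse number as a replicate block left 2 probe sets higher, 11 lower and 0 further interferon-induced genes. Mice 1 and 3 of each group share a number, and the labels do not say what it marks. The deviations of equally numbered mice correlated at 0.02 and 0.30, and those of the other pairs across groups at -0.26 to 0.26. The Ifrd1 call was lost with the block (-4.37, limma adjusted p = 0.103) and the covariate (-4.93, limma adjusted p = 0.0777), at differences close to the -4.61 reported. Irf8 passed in 4 alternatives, with limma adjusted p-values of 0.0279 to 0.0483, and Ifngr2 and Ikbke with the trend and robust prior (0.0272 and 0.0491). The cause of these shifts was not tested.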
